A study of Mus musculus with 9 samples.

Results

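The hippocampus of mice given PM2.5 was examined for 8 miRNAs that mark blood-derived immune cells and microglia or that are known to respond to inflammatory signals. They were chosen by name from the 1247 mouse miRNAs on the array: mmu-miR-142-3p, mmu-miR-142-5p, mmu-miR-223-3p, mmu-miR-150-5p, mmu-miR-155-5p, mmu-miR-146a-5p, mmu-miR-146b-5p and mmu-miR-21a-5p. The question was whether such miRNAs are higher in hippocampal RNA after PM2.5, a particle mixture studied here for its effects on the brain. Male C57BL/6 mice, about 8 weeks old by the study's methods, received oropharyngeal aspiration every other day for 4 weeks. The control group was given saline, and the other groups were given PM2.5 at 1 mg/kg or 5 mg/kg of body weight. By the methods, the hippocampus was taken 18 h after the last aspiration, and its total RNA was hybridized to 1-colour Agilent arrays, 3 arrays in each group. The study describes the control and 5 mg/kg arrays as individual mice. The labels mention repeated experiments with several replicates per group, but not whether an array's replicate number stands for a mouse, a pool or an experiment. The p-values therefore measure the spread between arrays, which may be technical. The tissue is a mixture of all cells of the hippocampus together with whatever blood remained in its vessels.

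A miRNA is a short RNA that binds messenger RNAs through its seed, the bases near its 5′ end, and lowers the output of the targets. miR-142, miR-223, miR-150 and miR-155 are made mainly in cells of the blood-forming lineage, which includes the microglia of the brain. miR-155-5p is induced by the NF-κB pathway in activated macrophages and promotes inflammatory signalling, whereas miR-146a-5p is induced by the same pathway and restrains it by targeting the adaptors Traf6 and Irak1. miR-21a-5p is widely expressed and is raised in many injured and inflamed tissues, including in reactive astrocytes.

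The mature sequences are shown because the probes read them directly and because the seed sets which members can share targets. RefSeq (GRCm38.p6) held 7 of the 8, and the array's miR-142-3p and miR-142-5p are the entries named miR-142a-3p and miR-142a-5p there. Each is written 5′ to 3′ with its seed (bases 2 to 8) in capitals.
mmu-miR-142-3p: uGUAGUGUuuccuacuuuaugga
mmu-miR-142-5p: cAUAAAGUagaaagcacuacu
mmu-miR-223-3p: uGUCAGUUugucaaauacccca
mmu-miR-155-5p: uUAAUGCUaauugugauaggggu
mmu-miR-146a-5p: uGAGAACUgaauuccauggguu
mmu-miR-146b-5p: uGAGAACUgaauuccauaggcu
mmu-miR-21a-5p: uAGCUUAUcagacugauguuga

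The 7 sequences carry 6 seeds. miR-146a-5p and miR-146b-5p share theirs, although they come from different chromosomes (chr11:43374435-43374456, minus strand, and chr19:46342790-46342811, plus strand). They differ at 2 of 22 bases, G18A and U21C, with the miR-146a-5p base first and positions counted from its 5′ end. Every probe for either one spans both of those bases and so has 2 mismatches to the other. Both arms of miR-142 come from 1 hairpin, at chr11:87756903-87756925 for miR-142-3p and chr11:87756867-87756887 for miR-142-5p, plus strand. The other loci are chrX:96242884-96242905 (plus) for miR-223-3p, chr16:84714143-84714165 (plus) for miR-155-5p and chr11:86584120-86584141 (minus) for miR-21a-5p.

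The signal of each miRNA was the sum over its 2 probes, background-subtracted, in fluorescence units. For comparison between arrays it was divided by the array's 75th percentile and put on the log2 scale, called the log2 scaled signal. Levels of different miRNAs were not compared, since each probe binds with its own efficiency. Of the members, 6 were detected on all 9 arrays, miR-155-5p on 7, and miR-142-5p on 0. The 7 detected members passed the filter of detection on all 3 arrays of at least 1 group, as did 424 of all 1247 miRNAs. miR-155-5p passed only through the PM2.5 groups, since it was detected on 1 of 3 control arrays. Per array, 410 to 436 miRNAs were detected and the 75th percentile was 492 to 614 units. The mean log2 of that percentile was 0.11 above the control at each dose. Readings in unscaled units include that difference between the groups. The 5 neuronal miRNAs checked for the tissue label were each detected on all 9 arrays. On slide 1, the controls shared row 1 with replicate 1 of 1 mg/kg, and the remaining 1 mg/kg arrays shared row 2 with replicates 1 and 2 of 5 mg/kg. Replicate 3 of 5 mg/kg was the single array on slide 2, so that dose and slide position overlapped in part.

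At 5 mg/kg, 1 of the 7 tested members, miR-142-3p, was above the control at an unadjusted p under 0.05 (limma), against 9.43% of all 424 miRNAs in either direction and 4.01% in the upward direction. After Benjamini-Hochberg adjustment over the 424 miRNAs, 0 of 7 members passed at this dose, as did 0% of all miRNAs, and the lowest adjusted p of a member was 0.469. The median log2 change of the 6 members detected on all 9 arrays was 0.02, beside -0.0035 over all tested miRNAs, with 4 of them above zero and 2 below. miR-155-5p is left out of these medians, because it was tested only through the groups in which it was high. At 1 mg/kg, 0 of 7 members had an unadjusted p under 0.05 in limma, against 7.78% of all miRNAs in either direction and 2.83% in the upward direction, and 0 of 7 passed after adjustment, against 0.236%. There the median log2 change of the same 6 members was 0.02, beside -0.03 over all tested miRNAs, with 3 above zero and 3 below. Between the doses, 0 of 7 members had an unadjusted p under 0.05, against 3.77% of all miRNAs, and 0 passed after adjustment, against 0.236%. Both doses were compared with the same 3 control arrays. In whole tissue, a change in the number of cells of a type and a change in RNA per cell cannot be told apart.

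**Figure D1:**
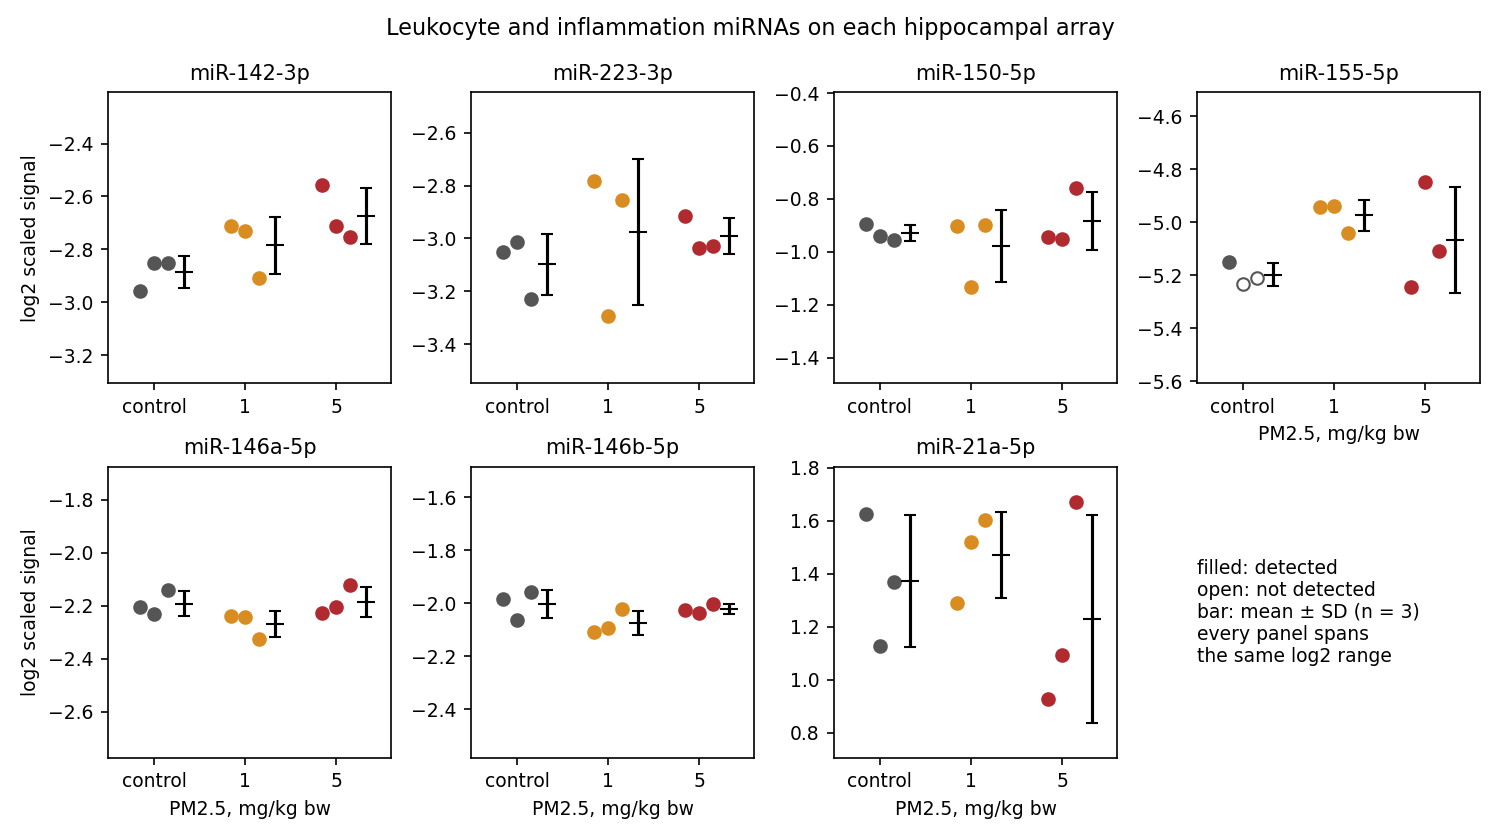
Log2 scaled signal (vertical axis) of the 7 detected miRNAs on each array, by group (control and each dose of PM2.5 in mg/kg body weight). Each point is 1 array, bars are the mean ± SD of 3 arrays, and open points mark arrays on which the miRNA was not detected. The 3 arrays at 5 mg/kg lie above the 3 controls for miR-142-3p, from -2.75 to -2.55 against -2.96 to -2.85.

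miR-142-3p, which is found in nearly all cells of the blood-forming lineage, gave 69.8, 76.8 and 68.2 units on the control arrays. It gave 77.3, 90.1 and 81.5 units at 1 mg/kg and 94.1, 84.3 and 91.0 units at 5 mg/kg. On the log2 scaled signal the means were -2.89 ± 0.06 (SD, n = 3) in the control, -2.78 ± 0.11 at 1 mg/kg and -2.67 ± 0.11 at 5 mg/kg. All 3 arrays at 5 mg/kg were above all 3 controls, which 6.6% of the tested miRNAs also showed in that comparison, whereas 1 array at 1 mg/kg lay among the controls. The log2 change at 5 mg/kg was 0.21 (SE 0.08, 95% interval 0.02 to 0.41), or 1.16-fold, with an unadjusted p of 0.0344 and an adjusted p of 0.469 in limma. It ranked 28 of 424 by p. At 1 mg/kg the log2 change was 0.10 (SE 0.08, 95% interval -0.09 to 0.29, adjusted p = 0.802 in limma). The doses differed by 0.11 on the log2 scale (95% interval -0.08 to 0.30).

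Both probes for miR-142-3p read higher at 5 mg/kg than in the control. The 1 that spans the whole mature sequence, all 23 bases, read 46.4 to 53.2 units in the control and 55.7 to 62.4 units at 5 mg/kg. The other, which lacks the first base, read 21.8 to 23.7 units in the control and 28.7 to 31.6 units at 5 mg/kg. The log2 changes at 5 mg/kg were 0.17 and 0.29, and neither probe's control arrays overlapped its 5 mg/kg arrays. At 1 mg/kg they were 0.06 and 0.18. There the shorter probe lay above its controls (-4.47 to -4.28 against -4.62 to -4.50 in log2 scaled signal), and the longer overlapped them. Both probes are parts of the tested sum, so they are not separate support. In row 2 of slide 1 the 5 mg/kg arrays were 0.19 above the 1 mg/kg arrays in log2 scaled signal, and in row 1 the single 1 mg/kg array was 0.17 above the mean of the controls. The 5 mg/kg array on slide 2, also in row 1, was 0.13 above that mean. With slide row added to the model, the estimate at 5 mg/kg was a log2 change of 0.21 and its unadjusted limma p rose to 0.0948. The unadjusted p was also above 0.05 when any 1 control array, or replicate 1 or 2 of 5 mg/kg, was left out, up to 0.115 without 5 mg/kg replicate 1. The sign of the change was the same in all 25 other settings tried, and its unadjusted p was under 0.05 in 17 of them. Not all of these are separate checks. The filter settings, no moderation, the replicate block, the 2 groups alone and leaving out a 1 mg/kg array could not change the estimate. The slide block and leaving out 5 mg/kg replicate 3 gave the same fit.

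**Figure D2:**
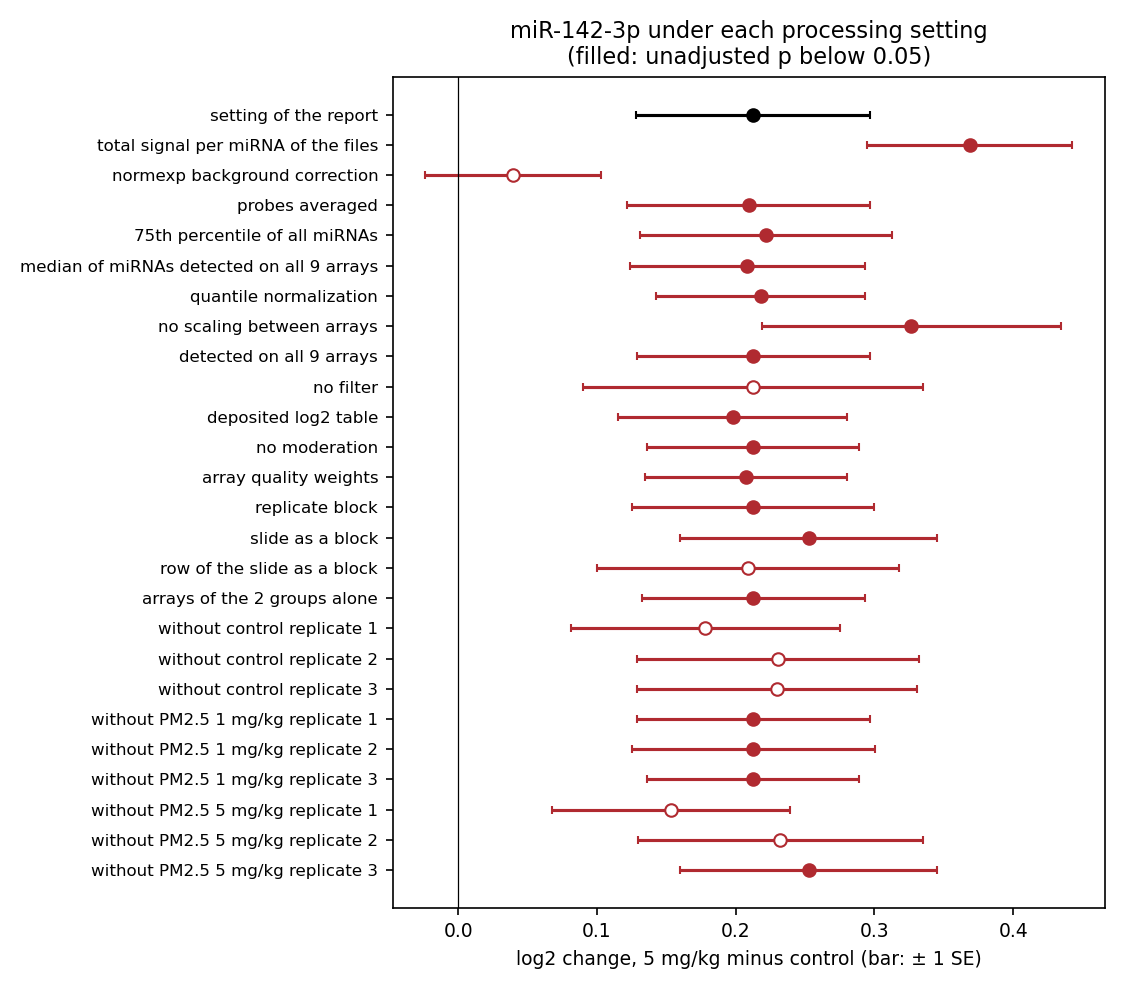
Log2 change of miR-142-3p at 5 mg/kg against control (horizontal axis, bars ± 1 SE) in the setting of the report and in 25 other settings, 1 per line. Filled points have an unadjusted p under 0.05. All of the values are above zero, from 0.04 with normexp background correction to 0.37 with the files' total signal, and 8 of the 25 alternatives did not pass. Alternatives that changed only the filter, the moderation, the replicate block or the 1 mg/kg arrays repeat the report's estimate by construction.

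The red blood cell marker miR-451a was also higher on the 5 mg/kg arrays than on the controls. Its scaled signal was 2.87, 3.66 and 3.31 times the array's 75th percentile in the control, 3.18, 3.47 and 2.95 times at 1 mg/kg, and 4.03, 3.73 and 3.96 times at 5 mg/kg. The 3 arrays at 5 mg/kg stood above all the others. Of all tested miRNAs, 6.6% likewise stood above the control without overlap at 5 mg/kg, and 5.9% stood higher at 5 than at 1 mg/kg. Between the doses miR-451a differed by 0.29 on the log2 scale (unadjusted p = 0.0210 and adjusted p = 0.995 in limma), beside 3.77% of all tested miRNAs under 0.05. Its log2 change at 5 mg/kg against control was 0.26 (SE 0.10, unadjusted p = 0.0344 and adjusted p = 0.469 in limma). Its unadjusted p was above 0.05 in 11 of the 25 other settings, among them leaving out control replicate 1 or 3 or 5 mg/kg replicate 1 or 3 (up to 0.125 without control replicate 1), quantile normalization (0.0717) and slide row as a block (0.0828). The log2 change was above zero in each, from 0.17 to 0.41, although the settings named above for miR-142-3p could not change this estimate either. Of the 4 red blood cell miRNAs analysed, 2 were tested, and 2 (miR-144-5p and miR-486-3p) were detected on 0 arrays. At 5 mg/kg 1 of the 2 tested had an unadjusted p under 0.05 against control, beside 9.43% of all tested miRNAs. The other tested one, miR-144-3p, was detected on 8 arrays and overlapped the control. Its log2 change at 5 mg/kg was 0.40 (SE 0.27, unadjusted p = 0.184 in limma). miR-144-3p was a weak signal, and its lowest reading, 11.9 units, was on control replicate 1. If the array without a detection call was a control, miR-144-3p was tested only through the PM2.5 groups. Its change is therefore given as a description. The summed scaled signal of all 4 was 2.90 to 3.71 in the control, 2.99 to 3.52 at 1 mg/kg and 3.79 to 4.10 at 5 mg/kg. The part of blood left in the tissue in the miR-142-3p difference was not tested.

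**Figure D3:**
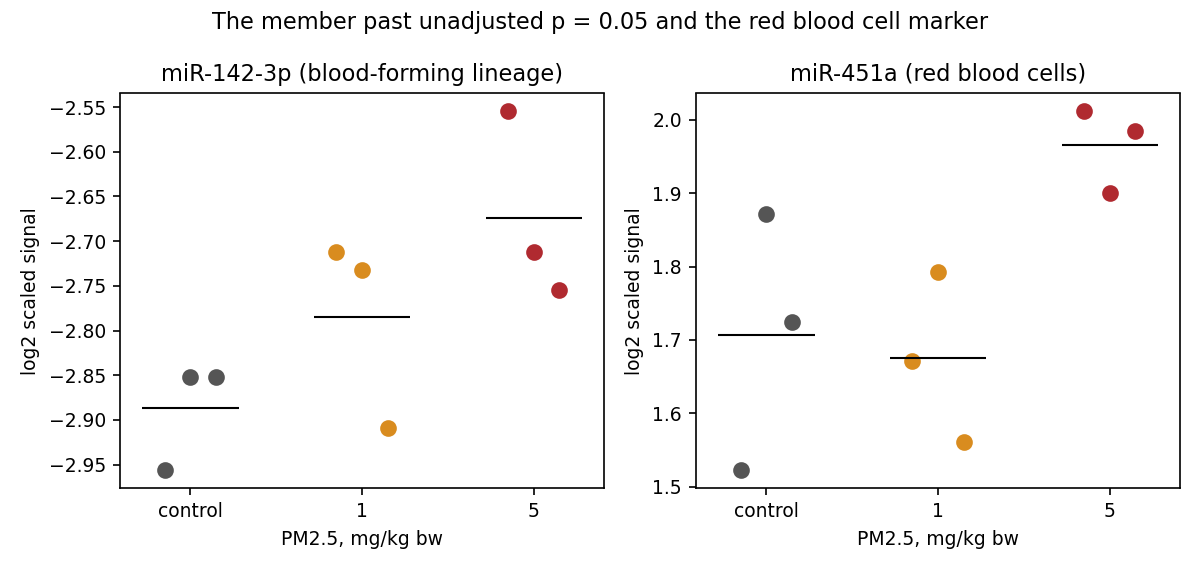
Log2 scaled signal (vertical axes, which do not start at 0 and differ between panels) of miR-142-3p and of the red blood cell marker miR-451a on each array by group. Lines are group means over 3 arrays. In both panels the 3 arrays at 5 mg/kg lie above the 3 control arrays.

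The other arm of the same hairpin, miR-142-5p, was called detected on 0 arrays, with 0 to 1 spots per array well above background. Its 2 probes together read 6.45, 8.89 and 9.35 units in the control, 8.99, 12.3 and 9.13 units at 1 mg/kg, and 12.4, 7.91 and 11.5 units at 5 mg/kg. These readings overlapped between all groups, with a spot error of 7.51% of the signal at the median array, and no change is given for them. Of the opposite arms of the other members, 0 of 6 were detected on any array (miR-21a-3p, miR-146a-3p, miR-146b-3p, miR-150-3p, miR-155-3p and miR-223-5p). For every hairpin of the members, 1 arm at most was called detected, where 410 to 436 of all 1247 miRNAs were detected per array.

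miR-223-3p is the miRNA of neutrophils and other myeloid cells. It read 65.4, 68.6 and 52.5 units in the control, 73.5, 61.1 and 84.7 units at 1 mg/kg, and 73.3, 67.4 and 75.3 units at 5 mg/kg. The 1 mg/kg group held both the lowest and the highest log2 scaled signal of all 9 arrays, -3.29 and -2.78, and all groups overlapped. The log2 changes were 0.12 (95% interval -0.18 to 0.43) at 1 mg/kg and 0.11 (95% interval -0.20 to 0.41) at 5 mg/kg, with adjusted p-values of 0.865 and 0.817 in limma. With 1 array left out, the log2 change at 1 mg/kg ran from 0.03 without 1 mg/kg replicate 1 to 0.28 without 1 mg/kg replicate 2, the lowest array (unadjusted p = 0.0178 in limma), and was 0.06 without 1 mg/kg replicate 3 or control replicate 3. The change at 5 mg/kg was 0.04 without control replicate 3 and 0.07 without 5 mg/kg replicate 1.

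miR-150-5p, characteristic of mature lymphocytes, read 291.8, 289.5 and 254.1 units in the control and 271.4, 272.9 and 328.8 units at 1 mg/kg. At 5 mg/kg it read 287.4, 285.8 and 363.0 units. The log2 changes were -0.05 (95% interval -0.25 to 0.15) and 0.04 (95% interval -0.16 to 0.25), and the groups overlapped at both doses. The highest log2 scaled signal, -0.76, was on the 5 mg/kg array that lay alone on slide 2. Without it the log2 change at 5 mg/kg was -0.02.

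miR-155-5p was close to the detection limit. It read 15.3, 14.7 and 13.3 units in the control, of which only the first was called detected. It read 16.5, 19.6 and 18.6 units at 1 mg/kg and 14.6, 19.2 and 17.8 units at 5 mg/kg, all called detected. Of the 36 to 39 spots used per array, 0 to 7 were well above background, and the spot error at the median array was 4.85% of the signal. All 3 arrays at 1 mg/kg were above all 3 controls in log2 scaled signal, which 4.72% of tested miRNAs also showed there, whereas at 5 mg/kg the lowest array was below every control. The log2 change was 0.22 (SE 0.10, 95% interval -0.01 to 0.46, unadjusted p = 0.0551 and adjusted p = 0.543 in limma) at 1 mg/kg. At 5 mg/kg the log2 change was 0.13 (95% interval -0.10 to 0.36, adjusted p = 0.711 in limma), and it was 0.02 without 5 mg/kg replicate 2 and 0.22 without 5 mg/kg replicate 1. The doses differed by -0.09 on the log2 scale, and by -0.20 without 5 mg/kg replicate 2 (unadjusted p = 0.0466 in limma). The 1 mg/kg value depended on how low signals were treated: it was 2.55 in the deposited log2 table, in which the control arrays not called detected stand at -3.32 and -3.29 against -0.67 for the detected control, and -0.05 after normexp correction. The same settings gave 1.75 and -0.06 at 5 mg/kg, and the files' total signal gave 5.11. The miRNA entered the test only through the groups that received PM2.5, in which it had to be high. Its presence among the tested miRNAs and its changes and p-values against control, which cross 0.05 at 1 mg/kg when 5 mg/kg replicate 1 or 2 is left out (0.0306 and 0.0195 in limma), are therefore a description and not evidence of a difference.

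**Figure D4:**
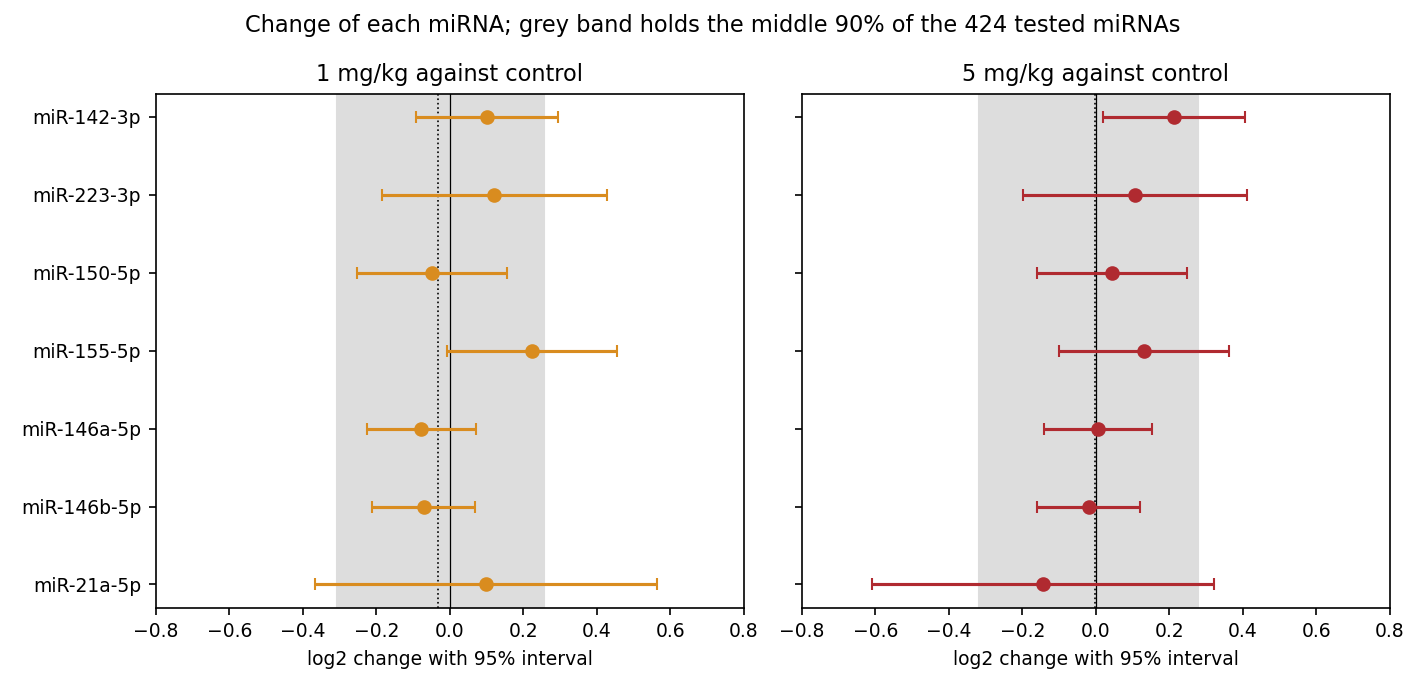
Log2 change (horizontal axis, points with 95% intervals from limma) of the 7 tested miRNAs for each dose against control. The grey band holds the middle 90% of the 424 tested miRNAs, from -0.31 to 0.26 at 1 mg/kg and from -0.32 to 0.28 at 5 mg/kg. Every point lies inside the band, and only the interval of miR-142-3p at 5 mg/kg stays above zero.

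The miR-146 pair, known as restraints on NF-κB signalling, varied little between arrays. miR-146a-5p read 117.4, 118.2 and 111.8 units in the control, 107.4, 126.6 and 122.1 units at 1 mg/kg, and 117.9, 119.8 and 140.9 units at 5 mg/kg. After scaling, all 3 arrays at 1 mg/kg (log2 scaled signal -2.33 to -2.24) were below the 3 controls (-2.23 to -2.14) and below the 3 arrays at 5 mg/kg (-2.23 to -2.12). Of all tested miRNAs, 7.55% likewise stood below the control without overlap at 1 mg/kg, and 5.9% stood higher at 5 than at 1 mg/kg without overlap. The log2 change was -0.08 (95% interval -0.22 to 0.07, adjusted p = 0.802 in limma) at 1 mg/kg and 0.01 (95% interval -0.14 to 0.15) at 5 mg/kg. Without scaling between arrays the value at 1 mg/kg turned to 0.03. The 2 probes for miR-146a-5p gave the same log2 change at 1 mg/kg, -0.08, but differed at 5 mg/kg. There the probe averaging 98.8 units gave -0.02 and the probe averaging 21.4 units gave 0.12. Between the doses they gave 0.06 and 0.20.

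miR-146b-5p read 136.8, 132.8 and 126.7 units in the control, 117.6, 140.4 and 150.8 units at 1 mg/kg, and 135.7, 134.7 and 153.2 units at 5 mg/kg. Its groups overlapped after scaling, with log2 changes of -0.07 (95% interval -0.21 to 0.07) and -0.02 (95% interval -0.16 to 0.12). The pooled SD within groups was 0.05 for miR-146a-5p and 0.04 for miR-146b-5p on the log2 scale, against a median of 0.14 over the tested miRNAs. Only 3.77% and 2.36% of tested miRNAs had a smaller one.

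miR-21a-5p varied most among the members. Its log2 scaled signal was 1.62, 1.13 and 1.37 in the control, 1.29, 1.52 and 1.60 at 1 mg/kg, and 0.92, 1.09 and 1.67 at 5 mg/kg. Both the lowest and the highest array of the series were in the 5 mg/kg group, and all groups overlapped. The log2 change was 0.10 (SE 0.20, 95% interval -0.37 to 0.56) at 1 mg/kg and -0.14 (SE 0.20, 95% interval -0.61 to 0.32) at 5 mg/kg. Its pooled SD within groups, 0.28, exceeded that of 87.7% of the tested miRNAs, although its spots agreed to 0.886% of the signal at the median array. The highest of the 5 mg/kg arrays was the 1 alone on slide 2, and without it the log2 change against control was -0.36, with an unadjusted p of 0.0488 in limma. The difference between the doses, -0.24 on the log2 scale over all arrays, was then -0.46 (unadjusted p = 0.0188 in limma). Without that array, 120 of the 424 miRNAs had an unadjusted p under 0.05 against control, where 40 had one over all arrays, and 35 had one between the doses, where 16 had one over all arrays. Its 2 probes gave log2 changes of 0.11 and 0.07 at 1 mg/kg and -0.16 and -0.12 at 5 mg/kg.

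**Figure D5:**
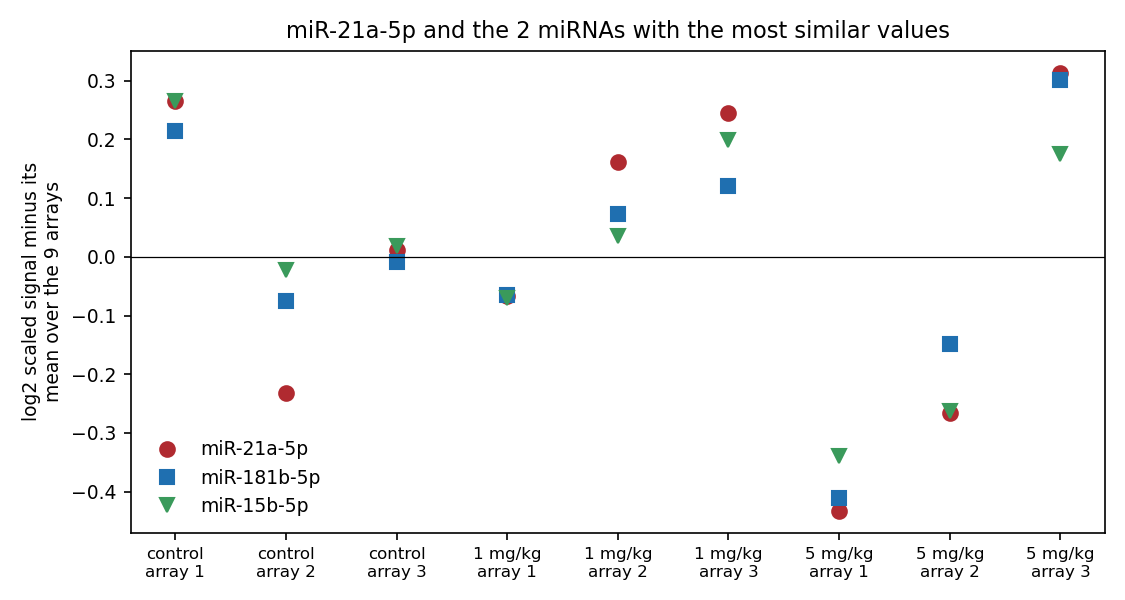
Log2 scaled signal minus the mean over the 9 arrays (vertical axis) of miR-21a-5p and of the 2 tested miRNAs whose values were closest to it, miR-181b-5p and miR-15b-5p, on each array. Points are single arrays. All 3 miRNAs were lowest on 5 mg/kg array 1 and differed more between arrays of a group than between group means.

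The members were not each other's nearest neighbours across the arrays. Likeness was measured as the root mean square difference of the centred log2 scaled signal over the 9 arrays, which share slides and scaling, and it is given as a description. For miR-21a-5p the closest were miR-181b-5p (0.085) and miR-15b-5p (0.10), against a median of 0.29 over all tested miRNAs. For miR-142-3p they were miR-300-5p (0.036) and miR-301a-3p (0.061), and for miR-150-5p they were miR-194-5p (0.025) and miR-93-5p (0.061). miR-155-5p was closest to miR-152-3p (0.083) and to the endothelial miR-126-5p (0.12), and miR-223-3p to miR-378b (0.10) and miR-744-5p (0.12). miR-146a-5p was closest to miR-30e-5p (0.043) and miR-22-3p (0.045), and miR-146b-5p to miR-1843a-5p (0.035) and miR-361-5p (0.036).

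A further 16 miRNAs with reported roles in innate immune signalling were read as a list. Of these, 14 were tested, and 0 of the 14 had an unadjusted p under 0.05 in limma at either dose against control, beside 7.78% of all tested miRNAs at 1 mg/kg and 9.43% at 5 mg/kg. miR-147-3p and miR-187-3p were detected on 0 arrays. The median log2 change of the list was -0.04 at 1 mg/kg and 0.03 at 5 mg/kg, beside -0.03 and -0.0035 over all tested miRNAs. Between the doses 1 of the 14, miR-9-5p, named here after its value was seen, was higher at 5 mg/kg by 0.17 on the log2 scale (unadjusted p = 0.0295 and adjusted p = 0.995 in limma), beside 3.77% of all tested miRNAs under that p. miR-9-5p is also a brain-enriched miRNA and stands in the neuronal list.

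The markers of other cell types differed between arrays as follows, as sums of scaled signal, in which the brightest miRNAs of a list weigh most. The neuronal list lay at 142.6 to 163.5 in the control, 121.6 to 142.4 at 1 mg/kg and 135.9 to 157.6 at 5 mg/kg. All 1 mg/kg arrays were below the controls, narrowly so at the closest (142.4 against 142.6). Of the list, 0 of 5 miRNAs had an unadjusted p under 0.05 against control in limma at either dose, beside 7.78% and 9.43% of all tested. The list's median log2 change was -0.07 at 1 mg/kg and 0.07 at 5 mg/kg, beside -0.03 and -0.0035 over all tested miRNAs. The choroid plexus list lay at 3.07 to 4.88 in the control, 5.36 to 8.74 at 1 mg/kg and 2.84 to 5.56 at 5 mg/kg. At 1 mg/kg 1 of its 3 miRNAs, miR-204-5p, passed an unadjusted p of 0.05 against control, beside 7.78% of all tested miRNAs. Its log2 change was 0.77 (SE 0.28, unadjusted p = 0.0249 and adjusted p = 0.538 in limma). miR-204-5p and miR-448-3p stood above the control there without overlap, as 4.72% of all tested miRNAs did. miR-155-5p did not overlap the control at this dose either, which is a description only, as stated above, and a link to the choroid plexus list was not tested. The summed signal of the list at 1 mg/kg did not overlap the control either. All 3 of its miRNAs were lower at 5 than at 1 mg/kg at an unadjusted p under 0.05, beside 3.77% of all tested miRNAs. The log2 differences were -0.83 for miR-204-5p, -0.59 for miR-211-5p and -1.62 for miR-448-3p (unadjusted p = 0.0177, 0.0250 and 0.0430, adjusted p = 0.995 each, in limma), the last 2 named after their values were seen. miR-204-5p and miR-211-5p overlapped between the doses, whereas miR-448-3p did not. miR-448-3p was a weak signal, detected on 7 of the 9 arrays with a mean of 29.2 units in the control. If it passed the filter only through the 1 mg/kg group, where it was highest, its differences from that group are a description and not evidence. The part of choroid plexus tissue in the values at 1 mg/kg was not tested. The oligodendrocyte and endothelial lists, with 0 of 2 miRNAs each at an unadjusted p under 0.05 in limma, overlapped between all groups (3.63 to 5.24, 4.47 to 5.53 and 2.57 to 5.87 for the first, and 5.48 to 6.02, 5.57 to 6.06 and 5.53 to 6.34 for the second, in the order control, 1 and 5 mg/kg). The leukocyte markers, all of them members described above, summed to 0.807 to 0.828 in the control, 0.761 to 0.883 at 1 mg/kg and 0.840 to 0.910 at 5 mg/kg. No test was run on these sums. Most of each sum was miR-150-5p, whose groups overlapped (scaled signal 0.516 to 0.538 in the control and 0.517 to 0.591 at 5 mg/kg). The sums also hold miR-142-5p, detected on 0 arrays, and miR-155-5p, which was tested only through the PM2.5 groups.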

How the data were processed

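The authors extracted each array with Feature Extraction (version 10.7 in the submitters' processing notes), and the deposited text files give background-subtracted intensity per spot, with outlier flags and a detection call per miRNA. They also deposited a log2 table whose normalization is not given in the sources used here. The methods name GeneSpring. From the intensities, outlier spots were left out, spots were averaged per probe and probes summed per miRNA. Arrays were scaled to their 75th percentile, computed over 395 miRNAs with a detection call on every array. Signals under an array's lowest detected one were set to that value before log2. A miRNA was tested if some group had it detected on each of its 3 arrays. The test was 1 fit over the 3 groups with limma 3.58.1 (R 4.3.3), two-sided, with Benjamini-Hochberg adjustment, after a check on simulated data. The probe readings of 0 spots were identical between any pair of arrays. The members, lists and tests were chosen with earlier results of these data known. Named are all members, list miRNAs at an unadjusted p under 0.05 against control, and the 2 nearest profiles of each tested member. The opposite arms and the list miRNAs detected on 0 arrays are named as well. miR-9-5p, miR-144-3p, miR-211-5p and miR-448-3p were named after their values were seen. Alternatives changed the background correction, scaling, filter, blocks, weights and moderation, or left out 1 array. Mature sequences are from RefSeq. Intensities are relative, and the number of arrays limits the precision.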

Additional observations from a re-analysis of the deposited data

How the results depend on the processing

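The 3 comparisons were repeated under 25 alternatives each, and 0 members passed after adjustment in any of them. At 1 mg/kg the count of members with an unadjusted p under 0.05, 0 of 7 in the report, was 1 with the files' total signal (miR-142-3p) and 1 with a 75th percentile that included undetected miRNAs, no scaling, the deposited table, array weights or the arrays of the 2 groups alone (each miR-155-5p). At 5 mg/kg the count of 1 became 0 with normexp, no filter or slide row as a block, and 2 with the slide as a block (miR-21a-5p added), which gives replicate 3 of 5 mg/kg no weight by construction. Between the doses the count of 0 became 1 with array weights or the slide block (miR-21a-5p). With 1 array left out, the counts ran from 0 to 1, from 0 to 2 and from 0 to 1. Over all tested miRNAs, 33 of 424 had an unadjusted p under 0.05 at 1 mg/kg, and this became 43 with the total signal, 70 with array weights, 14 with normexp, 8 with the row block and 780 of 1247 with no filter. With no filter, signals under an array's lowest detected one stand at that array's own floor, from -6.68 to -5.93 in log2 scaled signal. The median log2 change at 1 mg/kg was then -0.39, so the 780 include differences between floors and are not a count of changed miRNAs. The 40 at 5 mg/kg became 120 with the slide block, 102 with the total signal, 72 with array weights, 17 with normexp, 14 with the row block and 30 of 1247 with no filter. The 16 between the doses became 35 with the slide block or array weights and 9 with normexp. With 1 array left out, the counts over all ran from 11 to 49, from 21 to 120 and from 8 to 35. The replicate block left the counts at 0, 1 and 0. Same-numbered arrays had residual correlations from -0.648 to 0.738. With 3 arrays per group these values cannot decide whether the numbers stand for pairs. The labels do not say what the numbers stand for, and they were not treated as pairs. With no scaling the median log2 change of all miRNAs at 1 mg/kg was 0.078, against -0.032 in the report, and with the files' total signal it was 0.10. normexp adds an offset of 50 units, against probe readings of 21.8 to 62.4 units for miR-142-3p, and there its log2 change at 5 mg/kg was 0.040.

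Log2 changes that passed no test turned their sign as follows. With normexp, miR-142-3p was at -0.0022, miR-223-3p at -0.00044 and miR-155-5p at -0.046 at 1 mg/kg, and miR-223-3p at -0.014, miR-146a-5p at -0.028 and miR-155-5p at -0.064 at 5 mg/kg. With the files' total signal, miR-146a-5p was at 0.062, miR-146b-5p at 0.068 and miR-150-5p at 0.090 at 1 mg/kg, miR-146b-5p at 0.14 and miR-21a-5p at 0.012 at 5 mg/kg, and miR-155-5p at 2.28 and miR-223-3p at 0.0016 between the doses. With no scaling, miR-146a-5p was at 0.032, miR-146b-5p at 0.038 and miR-150-5p at 0.061 at 1 mg/kg, and miR-146b-5p at 0.094 at 5 mg/kg. At 5 mg/kg miR-146a-5p was at -0.0025 with quantile normalization, -0.073 in the deposited table, -0.021 with array weights and -0.026 with the slide block, where miR-150-5p was at -0.019. miR-150-5p was at 0.053 at 1 mg/kg with the row block. Between the doses miR-223-3p was at 0.11 with array weights, 0.098 in the deposited table and 0.0017 with the slide block. With 1 array left out, miR-21a-5p ran from -0.026 to 0.22 and miR-150-5p from -0.089 to 0.030 at 1 mg/kg. At 5 mg/kg, miR-21a-5p ran from -0.36 to 0.0084, miR-146a-5p from -0.026 to 0.032, miR-146b-5p from -0.050 to 0.0022 and miR-150-5p from -0.019 to 0.078, and between the doses miR-223-3p ran from -0.17 to 0.081. The causes were not tested.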
